A study of Mus musculus with 8 samples.

Results

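The components of RNase P and RNase MRP, the paired ribonucleoprotein enzymes that cut precursor tRNA and precursor rRNA, were followed in activated B cells with and without Eif4a1. The set holds 10 of the 53242 genes in the deposited tables. It has 2 RNA subunits, Rpph1 and Rmrp, and 8 protein subunits, Pop1, Pop4, Pop5, Pop7, Rpp21, Rpp30, Rpp38 and Rpp40. The members were found by gene name, and the set was selected on measured values, because the difference between genotypes in these same libraries was already known when it was chosen. The members' genotype differences are therefore given as a description. Where the text says whether a member met the thresholds used for all genes, this describes the values and is no independent test of them. Terms that played no part in the choice, namely sex, batch and their interaction with genotype, were tested.

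The RNA came from splenic B cells of C57BL/6 mice aged 8 to 12 weeks, with 4 libraries from Eif4a1+/+ CD23-cre mice, the control, and 4 from CD23-cre mice with Eif4a1 fl/fl, the 4A1 KO. Activation lasted 24 h in every culture and used 40 ng/ml IL4 and irradiated CD40LB cells, a feeder line that presents CD40 ligand. The feeder cells were then labelled with a biotinylated antibody to H-2Kd and removed with beads against biotin. Both genotypes carried the Cre transgene, which deletes the floxed allele from the immature B cells of the spleen onwards, so the cells had developed with EIF4A1, the RNA helicase of the translation initiation complex EIF4F. Replicates 1 and 3 were male and replicates 2 and 4 female in both genotypes, and the labels place replicates 1 and 2 in batch A and replicates 3 and 4 in batch B.

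The study removed replicate 1 of both genotypes from its differential expression for reduced viability, so fitted values rest on replicates 2 to 4 (n = 3 per genotype) and replicate 1 is shown beside them. Between 31727557 and 43210858 reads were counted per library. Eif4a1 itself stood at 748 to 939 CPM, the read count scaled to the library's size, in the controls and at 556 to 689 in 4A1 KO cells, with a log2 fold change of -0.44 ± 0.05 (SE), and the count covers exons outside the deleted part. The summed CPM of 6 B cell markers was 3519 to 3725 in controls and 2879 to 3102 in 4A1 KO libraries, and Cd79a, Cd79b and Cd22 were called lower. No T cell marker had more than 1 read, and no erythroid marker more than 4. Myeloid markers had up to 52 reads in a library. They summed to 0.757 to 1.61 CPM in controls and 0.127 to 2.15 CPM in 4A1 KO libraries. Fibroblast markers, which feeder cells could bring, summed to 6.38 to 35.2 CPM in controls and 7.20 to 20.4 in 4A1 KO libraries, with Lum at 0 and Dcn at no more than 1 read. Of these 5 markers 3 were tested, and their log2 ratios varied widely between pairs. Col1a1 was higher in 4A1 KO cells in 3 of 4 pairs and lower in pair 2, at a log2 ratio of -1.63. Col3a1 was called lower (log2 fold change -1.57 ± 0.57, SE, adjusted p = 0.044) with 25 reads against 1 in pair 4, and it was not called over all 8 libraries (adjusted p = 0.20).

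RNase P removes the 5′ leader of precursor tRNAs, and RNase MRP cuts the first internal transcribed spacer of precursor rRNA. Each is built around its own RNA, which forms the catalytic core, and the same set of proteins is largely shared between them. Both RNAs are made by RNA polymerase III from promoters that lie upstream of the transcribed part, and mutations of the human RMRP gene cause cartilage-hair hypoplasia, a disorder that includes immune deficiency. Activated B cells grow and divide quickly and therefore make large amounts of tRNA and rRNA.

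The sequences of both RNA subunits are shown because the position of each gene decides which reads can be assigned to it. Rpph1 (GRCm39 chr14:51044906-51045224, minus strand) is an RNA of 319 bases without introns. The first exon of Ccnb1ip1, on the same strand, covers 268 of these bases, and an exon of Parp2 on the opposite strand covers 277. Shown here is the 3′ end of Rpph1 (chr14:51044906-51044986, minus strand), in which the capitals mark the 51 bases outside the Ccnb1ip1 exon. Rmrp (chr4:43492783-43493063, minus strand) has 281 bases, and its capitals mark the 124 bases that lie antisense to an exon of Ccdc107.
Rpph1: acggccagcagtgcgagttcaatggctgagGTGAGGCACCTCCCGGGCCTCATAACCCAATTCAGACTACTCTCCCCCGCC
Rmrp: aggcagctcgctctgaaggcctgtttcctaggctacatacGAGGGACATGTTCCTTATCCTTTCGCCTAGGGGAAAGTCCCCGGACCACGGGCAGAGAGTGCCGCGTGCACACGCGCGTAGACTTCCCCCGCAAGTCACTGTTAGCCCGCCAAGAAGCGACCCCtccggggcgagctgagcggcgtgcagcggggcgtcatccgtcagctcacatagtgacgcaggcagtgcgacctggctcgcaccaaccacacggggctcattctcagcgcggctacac

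Rpph1, the RNA of RNase P, was the member that differed most between genotypes. It had 362, 641, 480 and 410 reads in control replicates 1 to 4 and 11, 32, 39 and 53 reads in 4A1 KO replicates 1 to 4. After TMM normalisation these counts correspond to 9.04, 15.9, 11.5 and 9.41 CPM in controls. The 4A1 KO libraries held 0.348, 0.830, 0.961 and 1.24 CPM. No 4A1 KO library reached the lowest control.

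The mean over replicates 2 to 4 fell from 12.3 ± 3.28 CPM to 1.01 ± 0.208 CPM (SD, n = 3). The fitted log2 fold change was -3.56 ± 0.22 (SE), or 0.0848 times the control. Rpph1 ranked 10 among 14218 genes tested, counted from the most negative fold change. The pairs of the same sex and batch had log2 ratios of -4.70, -4.26, -3.59 and -2.93 for replicates 1 to 4, so batch A held the larger differences. Control replicate 2, the library with the most Rpph1, was also the library with the highest fibroblast marker sum, 35.2 CPM. The highest sum among the 4A1 KO libraries, 20.4 CPM, was in replicate 1, which had the least Rpph1 of all 8 libraries (0.348 CPM). A link between fibroblast RNA and Rpph1 was not tested. Without replicate pair 2 the log2 fold change was -3.24. Fewer cells of one kind and less RNA per cell cannot be told apart in bulk RNA.

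**Figure D1:**
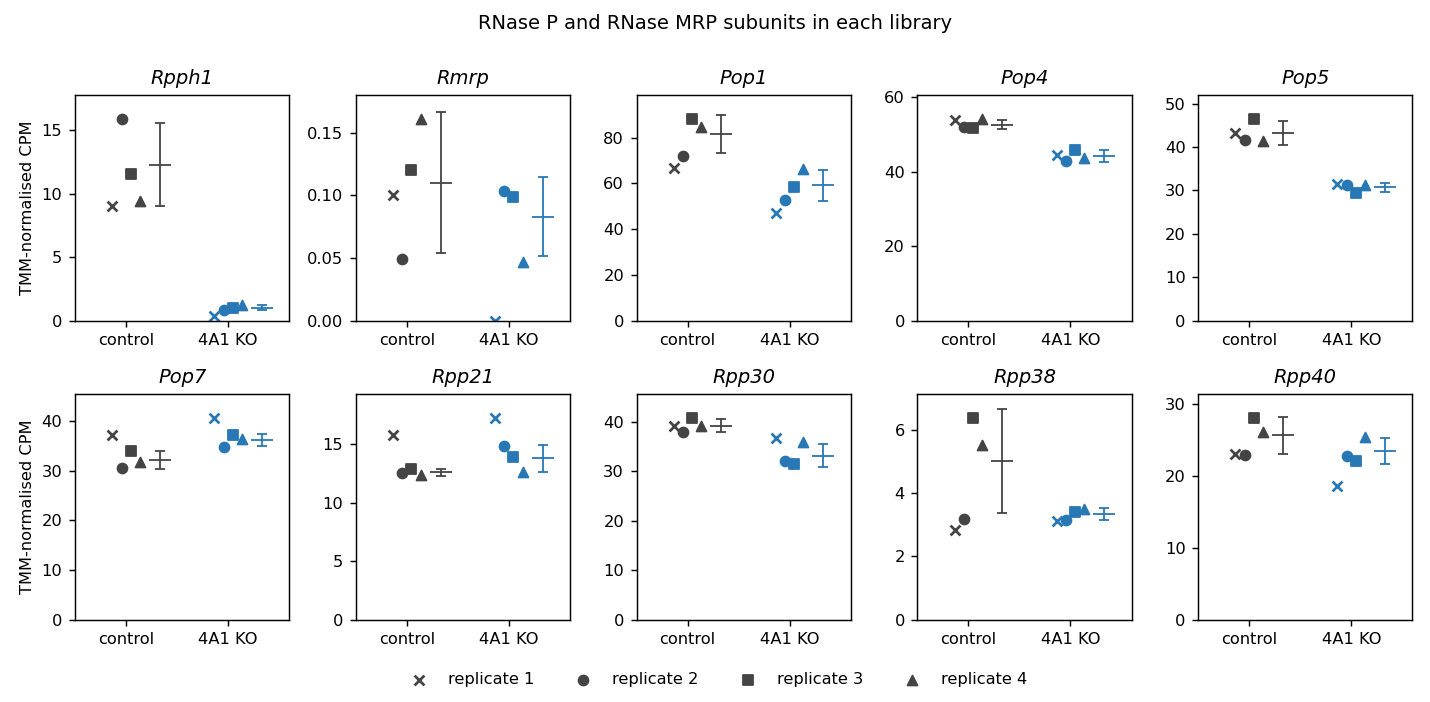
TMM-normalised CPM of the 10 subunits, 1 point per library (symbols give the replicate, grey control and blue 4A1 KO), with the mean and SD of replicates 2 to 4 at the right of each group. The 4A1 KO libraries of Rpph1 lie at 0.348 to 1.24 CPM against 9.04 to 15.9 in the controls, and the groups of Pop1, Pop4, Pop5 and Rpp30 also lie apart but closer together.

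Because of the shared exon, most reads of Rpph1 cannot be told apart from those of Ccnb1ip1, which codes for a ubiquitin ligase of the cyclin B1 pathway and of meiotic recombination. Ccnb1ip1 had 254, 449, 341 and 291 reads in the controls and 9, 23, 25 and 39 in 4A1 KO libraries. Relative to the Rpph1 count this was 70.2, 70.1, 71.0 and 71.0% in controls. In 4A1 KO replicates 1 to 4 it was 81.8, 71.9, 64.1 and 73.6%. The counts of both genes thus moved together in all 8 libraries, and the log2 fold change of Ccnb1ip1 was -3.57 ± 0.23 (SE). It is given without a test, since it may rest largely on the reads that chose Rpph1. How reads on overlapping genes were shared is not given.

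In the TPM table, whose values are scaled for gene length, Ccnb1ip1 was listed at 0 in all 8 libraries. Rpph1 stood there at 51.2, 92.3, 67.7 and 57.2 TPM in controls and at 1.96, 4.88, 5.70 and 7.49 TPM in 4A1 KO libraries. Parp2, which codes for a DNA repair enzyme and overlaps from the opposite strand, had 68.3 to 73.0 CPM in controls and 71.9 to 75.8 CPM in 4A1 KO libraries. Its log2 fold change was 0.08 ± 0.05 (SE), which did not pass the test (adjusted p = 0.23). The library kit marks the strand and the counting was set to it. RNase P RNA-like genes Rprl2 and Rprl3, which align to 204 bases of Rpph1 at 93.1% and 94.1% identity, had no read in any library.

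**Figure D2:**
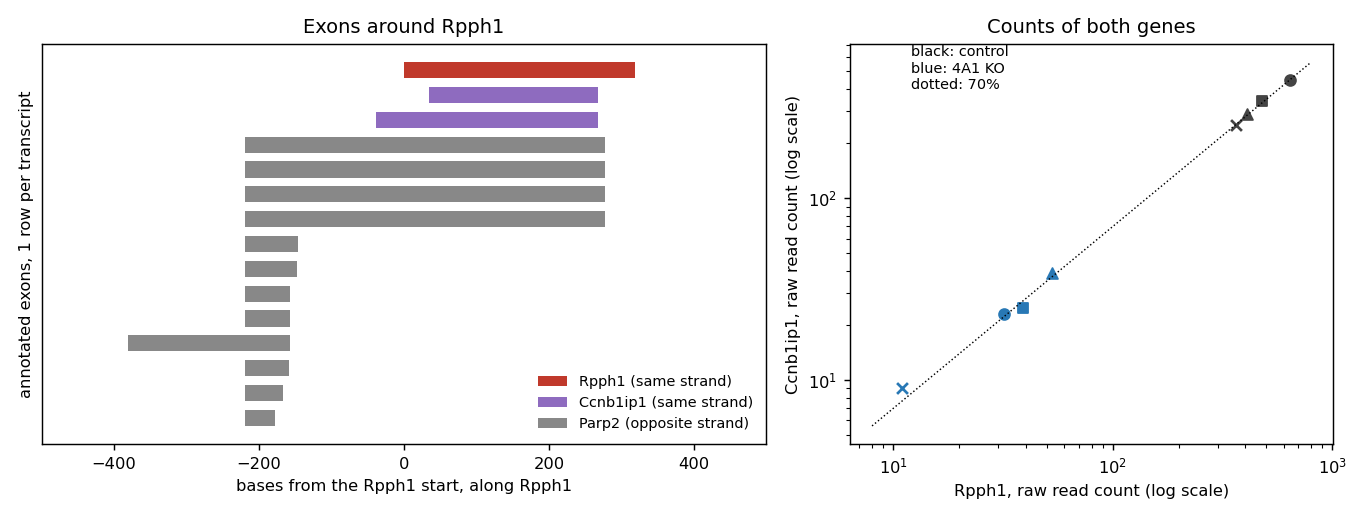
Left, annotated exons around the Rpph1 start in bases along Rpph1, 1 row per transcript, with Rpph1 in red, Ccnb1ip1 (same strand) in purple and Parp2 (opposite strand) in grey. Right, raw read counts of Ccnb1ip1 against Rpph1 on log axes, 1 point per library, with a dotted line at 70% on which the 4 controls (70.1 to 71.0%) fall closely and the 4A1 KO libraries (64.1 to 81.8%) more loosely.

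Rmrp, the RNA of RNase MRP, had few reads in these libraries. The row used is an entry of the non-coding type, and the annotation holds another Rmrp entry, a ribozyme on the same strand that shares 271 bases with it and was not analysed here. Rmrp had 4, 2, 5 and 7 reads in the controls and 0, 4, 4 and 2 in 4A1 KO cells, did not pass the filter on low counts in either fit and was listed at 0 TPM throughout. The groups overlapped, and no difference was detectable at this depth. Ccdc107, a coding gene that runs antisense across part of Rmrp, had a log2 fold change of 0.28 ± 0.10 (SE, adjusted p = 0.037), below the fold threshold of 0.5. Other short RNAs also had few reads. Of 19 listed, 14 were matched by name in the table, and none passed the filter on low counts in the 6 libraries.

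Rnu7, the RNA that helps to form histone mRNA ends, had the most reads of these short RNAs, with 7 to 13 in controls and 9 to 12 in 4A1 KO cells. It passed the filter over all 8 libraries, where its log2 fold change was 0.27 ± 0.32 (SE, adjusted p = 0.50). Snord118, the U8 RNA of rRNA processing, had 0, 0, 7 and 6 reads in control replicates 1 to 4 and none in 4A1 KO cells. The minor spliceosomal RNAs Rnu4atac, Rnu11 and Rnu12 had at most 6, 1 and 2 reads in any library. The signal recognition particle RNAs Rn7s1 and Rn7s2 had at most 3 and 5 reads, although the TPM table gives them 7.02 to 12.6 and 5.31 to 10.7 TPM. The maxima were 3 for the telomerase RNA Terc, 5 for the Y RNA Rny1 and 1 for the vault RNA Vaultrc5. Rny3 and the Rpph1-like genes Rprl1, Rprl2 and Rprl3 were at 0 in all 8 libraries. Among the short RNAs listed, those other than Rpph1 thus had at most 13 reads in a library, and no source used here says how the libraries were depleted of rRNA or selected for poly(A).

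The protein subunits moved far less than Rpph1. Their log2 fold changes had a median of -0.25 and ran from -0.54 to 0.17, against a median of 0.01 over all 14218 genes tested. Of the 8, 6 were below 0, as were 7026 of the 14218 genes. The difference between Rpph1 and the median protein subunit was -3.31 on the log2 scale. To be called, a gene needed both an adjusted p below 0.05 and a log2 fold change beyond 0.5 in either direction. Of the 9 members that passed the filter, 2 met these thresholds, both lower (Rpph1 and Rpp38), where 25.3% of all genes were called, 13.7% lower and 11.6% higher. Nothing is read from that count, since the members were chosen on this contrast. In 5 of 9 members the CPM of all 4A1 KO libraries lay under those of all controls (Rpph1, Pop1, Pop4, Pop5 and Rpp30), and the same held for 19.6% of all genes tested.

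**Figure D3:**
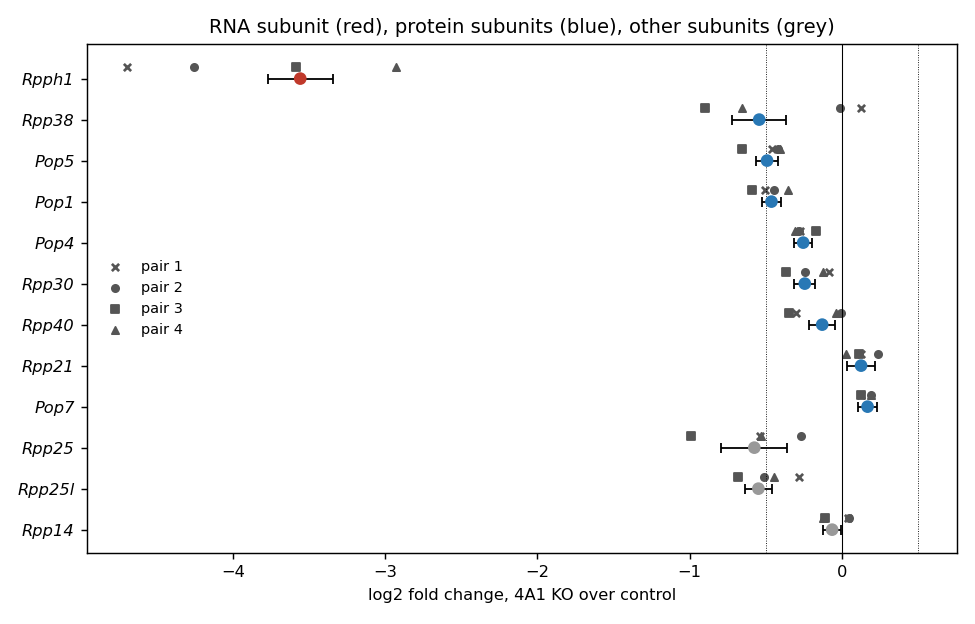
Log2 fold change of 4A1 KO over control for each subunit, as large points with SE bars (replicates 2 to 4) and small symbols for the log2 CPM ratio of each pair, with dotted lines at -0.5 and 0.5. Rpph1 lies at -3.56, the protein subunits (blue) between -0.54 and 0.17, and the batch B pairs of Rpp38 apart from its batch A pairs.

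Pop1, the largest protein of both enzymes (chr15:34495449-34530794, plus strand, 18 exons), had 66.9, 72.1, 88.1 and 84.5 CPM in controls. In 4A1 KO replicates 1 to 4 it had 47.1, 52.9, 58.6 and 66.2 CPM. All 4A1 KO libraries were below all controls, by a narrow margin at the top, and the log2 fold change was -0.46 ± 0.06 (SE), with pairs between -0.59 and -0.35. By TPM the groups overlapped. Rida, which starts 19 bases away on the opposite strand and codes for an enzyme that clears reactive imines, had a log2 fold change of -0.44 ± 0.10 (SE, adjusted p = 0.0048), short of the fold threshold.

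Pop5 (chr5:115373409-115383410, plus strand), which forms a heterodimer with Rpp30 at the RNA core, had 43.3, 41.7, 46.4 and 41.4 CPM in controls. The 4A1 KO libraries were closely spaced at 31.5, 31.2, 29.5 and 31.3 CPM. The log2 fold change was -0.49 ± 0.07 (SE), just inside the fold threshold, and all 4 pairs lay between -0.65 and -0.40. Rnf10, which codes for a ubiquitin ligase and shares 1364 exon bases with Pop5 on the opposite strand, fell from 198 to 213 CPM in controls to 101 to 111 CPM in 4A1 KO cells (log2 fold change -0.94 ± 0.06, SE, adjusted p = 1.1e-05).

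Rpp30 (chr19:36061092-36083194, plus strand), the partner of Pop5, had 39.0, 37.9, 40.6 and 39.1 CPM in controls. In 4A1 KO cells it had 36.7, 32.0, 31.5 and 35.9 CPM, all below the controls, and its log2 fold change was -0.24 ± 0.07 (SE). Pop4 (chr7:37961420-37972028, minus strand), which contacts the RNA subunit, had 53.9, 52.1, 51.8 and 54.1 CPM in controls and 44.4, 42.8, 46.0 and 43.8 CPM in 4A1 KO cells. Its groups did not overlap by CPM or by TPM, and its log2 fold change was -0.25 ± 0.06 (SE). Gm44767, a non-coding gene antisense to Pop4, had no reads, and Gm59310, which shares 164 exon bases with Rpp30 on the opposite strand, was not analysed here.

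Rpp38 (chr2:3327436-3333997, minus strand), a protein of the L7Ae family that binds the RNA subunit, had the fewest reads of the protein subunits. It had 2.85, 3.17, 6.35 and 5.51 CPM in controls and 3.10, 3.14, 3.40 and 3.50 CPM in 4A1 KO cells. The 2 controls of batch B were thus high, and the other 6 libraries lay close together. The log2 fold change was -0.54 ± 0.18 (SE), and the pairs were 0.12 and -0.01 in batch A and -0.90 and -0.65 in batch B. Without replicate 3 it was -0.35, without replicate 4 it was -0.48 and over all 8 libraries it was -0.39. With no replicate block it was -0.58 and with DESeq2 -0.53, and Rpp38 met the thresholds in none of these 5 fits. It met them without replicate 2, where the log2 fold change was -0.78, and with other size factors or no filter on low counts, at -0.54 to -0.52. Nmt2, a myristoyl transferase gene that shares 2480 exon bases with Rpp38 on the opposite strand, had a log2 fold change of -0.02 ± 0.06 (SE, adjusted p = 0.77).

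Rpp40 (chr13:36077453-36090364, minus strand), another shared protein, had 23.0, 22.9, 28.0 and 26.1 CPM in controls and 18.6, 22.8, 22.0 and 25.4 CPM in 4A1 KO cells. These groups overlapped (log2 fold change -0.13 ± 0.09, SE), and the value was -0.02 without replicate 3 and -0.26 on the TPM with a pseudocount of 0.1. The antisense non-coding gene Gm48746 had a count of 0 in all 8 libraries and at most 0.247 TPM.

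Pop7 and Rpp21 were the protein subunits with a fold change above 0. Pop7 (chr5:137499700-137500780, minus strand), which pairs with Rpp25, had 37.1, 30.5, 34.0 and 31.8 CPM in controls and 40.5, 34.8, 37.1 and 36.3 CPM in 4A1 KO cells. The groups overlapped, but each 4A1 KO library was above the control of its own pair, and the log2 fold change was 0.17 ± 0.06 (SE). Rpp21 (chr17:36566537-36568961, minus strand), a protein of RNase P that RNase MRP lacks, had 15.7, 12.5, 12.9 and 12.3 CPM in controls and 17.2, 14.8, 13.9 and 12.6 CPM in 4A1 KO cells. Replicate 1 was the highest in both groups, and the log2 fold change was 0.13 ± 0.09 (SE).

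Pop7 lies within an annotated intron of Epo, the erythropoietin gene, on the same strand. Epo had 7.18 to 9.30 CPM in controls and 4.65 to 6.07 CPM in 4A1 KO cells (log2 fold change -0.66 ± 0.12, SE, adjusted p = 0.0016), opposite in sign to Pop7, while the TPM table lists it at 0 in all 8 libraries. 9130604C24Rik, a non-coding gene that starts 155 bases from Pop7 on the other strand, had 9 to 15 reads in controls and 3, 20, 26 and 27 in 4A1 KO replicates 1 to 4 (log2 fold change 1.27 ± 0.35, SE, adjusted p = 0.013). Over all 8 libraries it was 0.75 ± 0.47 (SE, adjusted p = 0.20) and was not called, and pair 1 went the other way with a log2 ratio of -1.98.

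Other proteins that have been assigned to these enzymes were tested in the same fit. Rpp25l, a paralogue of Rpp25, had 18.2, 17.3, 21.1 and 19.5 CPM in controls and 15.0, 12.1, 13.1 and 14.3 CPM in 4A1 KO cells. It fell by 0.55 on the log2 scale (SE 0.09, adjusted p = 7.8e-04) and was called, but not without replicate 3 and not over all 8 libraries. Rpp25, the partner of Pop7, was at 1.42 to 2.02 CPM in controls and 0.715 to 1.40 CPM in 4A1 KO cells. Its log2 fold change of -0.57 ± 0.22 (SE) was beyond the fold threshold but narrowly missed that of the adjusted p (0.0501). Over all 8 libraries Rpp25 was called (adjusted p = 0.028). Rpp14 had a log2 fold change of -0.06 ± 0.06 (SE, adjusted p = 0.41). Thus 1 of these 3 genes was called, against 25.3% of all genes.

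The levels of the subunits were ordered per length in TPM. For Rpph1 the place among the mRNAs carries the limits given above, namely the exon shared with Ccnb1ip1 and a selection step that is not stated. In controls the mean over all 4 libraries was highest for Pop5 (85.8 ± 6.66 TPM, SD), followed by Rpph1 (67.1 ± 18.1), Pop7 (66.1 ± 5.59) and Rpp30 (63.9 ± 2.66). The ranges of neighbours in that order overlapped down to Rpp30. Pop4 (48.6 ± 1.72), Pop1 (45.2 ± 6.93) and Rpp21 (44.1 ± 5.27) came next with overlapping ranges, and Rpp40 (25.7 ± 1.93) and Rpp38 (8.07 ± 3.23) each lay apart. In 4A1 KO cells Pop7 led (73.3 ± 3.45 TPM), above Pop5 (61.2 ± 4.73) and Rpp30 (55.1 ± 3.93), whose ranges overlapped. Rpp21 (46.4 ± 3.56), Pop4 (41.2 ± 1.66), Pop1 (33.3 ± 5.96) and Rpp40 (21.7 ± 2.58) followed. Rpph1 (5.01 ± 2.31) had moved from the second place to the ninth, where its range overlapped that of Rpp38 (5.85 ± 0.535).

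**Figure D4:**
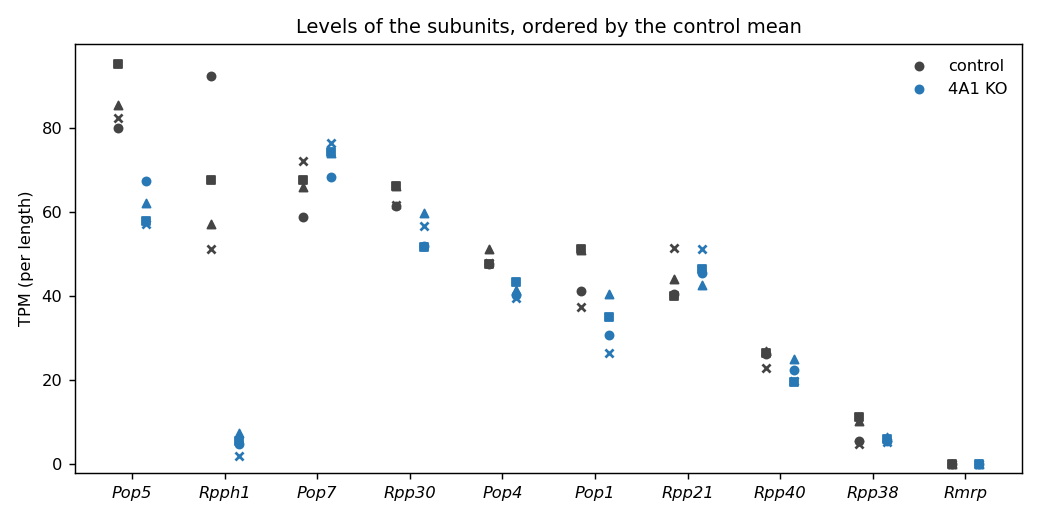
TPM of the 10 subunits in each of 8 libraries, ordered by the control mean, with controls in grey and 4A1 KO libraries in blue and the symbol giving the replicate. Rpph1 is at 51.2 to 92.3 TPM in controls and 1.96 to 7.49 TPM in 4A1 KO cells, Pop7 is the highest subunit of the 4A1 KO cells, and Rmrp is listed at 0.

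Sex, which did not enter the choice of members, was tested over all 8 libraries. Sex and batch vary only between the 4 replicate numbers, and the libraries of numbers 2 to 4 deviated together in pairs, so counting both as separate samples can make the p-values of sex and batch too small. None of the 9 members tested differed between males and females at an adjusted p under 0.05, where 6.88% of all genes did. Rpph1 had the largest estimate, -0.38 ± 0.25 (SE) on the log2 scale for males over females (adjusted p = 0.37). It passed the threshold only in the fit without replicate 4.

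Batch, tested in the same way, separated 28.2% of all genes and 2 of the 9 members. Pop1 was higher in batch B by 0.32 ± 0.05 on the log2 scale (SE, adjusted p = 0.0027), and this call held in each of the 4 fits that left out a replicate number. Rpp38 was higher in batch B by 0.58 ± 0.17 (SE, adjusted p = 0.031), and it was called in none of those 4 fits. Rpp21, at -0.21 ± 0.07 (SE), and Rpp40, at 0.22 ± 0.07 (SE), both had an adjusted p of 0.054.

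Neither the genotype by sex term nor the genotype by batch term passed for any member. The number of genes that passed was 0% and 0.00704% of those tested, respectively. The genotype difference of Rpp38 was -0.83 ± 0.23 in batch B relative to batch A on the log2 scale (SE, adjusted p = 0.999), and that of Rpph1 was 1.07 ± 0.49 (SE, adjusted p = 0.999). That these terms missed the threshold does not show that the differences were alike.

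**Figure D5:**
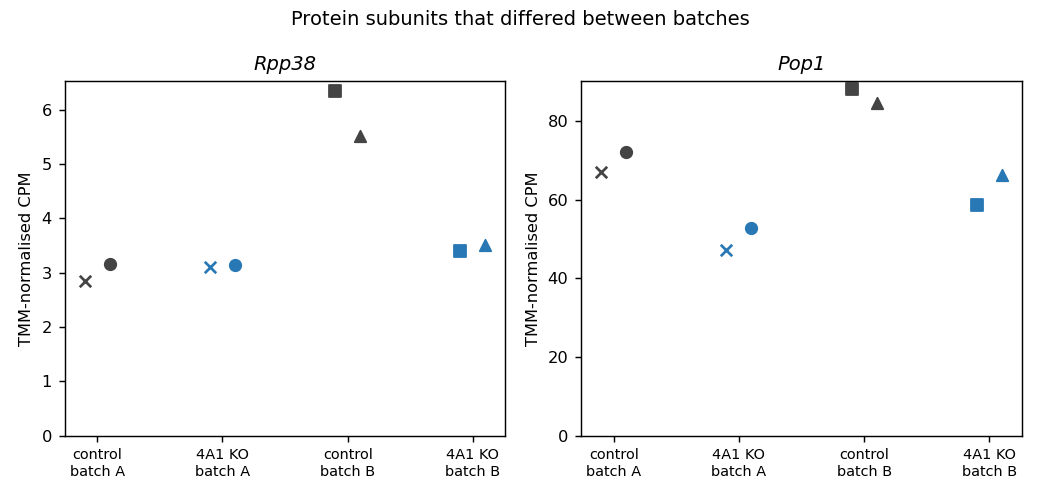
TMM-normalised CPM of Rpp38 and Pop1 by genotype and batch, 1 point per library, both axes starting at 0. The 2 batch B controls of Rpp38 (6.35 and 5.51 CPM) stand above the other libraries (2.85 to 3.50 CPM), while Pop1 is higher in batch B in both genotypes.

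The RNAs of enzymes and factors that act on the same precursors were counted from lists that, like the members, were chosen with earlier results of these data known, so their p-values are no independent evidence. Of 14 genes for tRNA maturation, 1 was called and it was higher, where 25.3% of all genes were called and 11.6% were called higher. This gene, Trmt10c, codes for the methyltransferase subunit of the mitochondrial RNase P, an enzyme made of protein alone, and its CPM rose from 38.3 ± 4.49 to 56.9 ± 3.65 (SD, n = 3). The log2 fold change was 0.57 ± 0.09 (SE, adjusted p = 8.1e-04), and it was not called without replicate 2. Prorp and Hsd17b10, named because they code for other subunits of that enzyme, had log2 fold changes of -0.07 ± 0.07 and -0.06 ± 0.07 (SE). Neither passed the test (adjusted p = 0.48 and 0.45). Xpot, the exporter of tRNA (0.44 ± 0.05, adjusted p = 1.4e-04), and Elac1, a relative of the enzyme that trims 3′ trailers (0.46 ± 0.09, adjusted p = 0.0023), passed the adjusted p but not the fold threshold. Trnt1, which adds the CCA end, passed likewise in the other direction, with a log2 fold change of -0.40 ± 0.05 (adjusted p = 3.2e-04). By adjusted p alone 2 genes were lower and 5 higher, against 26.7% and 26.3% of all genes, and the median was -0.06.

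Of 13 genes that process the internal transcribed spacers of rRNA, none was called, where 25.3% of all genes were, and by adjusted p alone 1 was lower and 2 higher, against 26.7% and 26.3% of all genes. Bop1, a member of the PeBoW complex, had a log2 fold change of -0.29 ± 0.05 (SE, adjusted p = 8.6e-04), and Wdr12 of the same complex one of 0.19 ± 0.05 (adjusted p = 0.010). The exonuclease gene Xrn2 had 0.12 ± 0.04 (adjusted p = 0.048), and Pes1, which codes for the last PeBoW protein, had 0.11 ± 0.05 (adjusted p = 0.069). The list's median was 0.07.

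Factors for the polymerase III promoters of the kind that Rpph1 and Rmrp carry were tested as a list of 11. Of these, 1 was called lower and 1 higher, where 13.7% of all genes were called lower and 11.6% higher. Snapc5, a small subunit of the SNAP complex that binds these promoters, fell from 16.3 ± 1.29 CPM in controls to 8.47 ± 0.700 CPM in 4A1 KO cells (SD, n = 3). Its log2 fold change was -0.95 ± 0.10 (SE, edgeR adjusted p = 8.0e-05). Maf1, the repressor of RNA polymerase III, rose from 53.9 ± 7.69 to 77.4 ± 11.2 CPM (SD), with a log2 fold change of 0.52 ± 0.05 (SE, adjusted p = 6.6e-05), and it was not called over all 8 libraries. Snapc2 (-0.46 ± 0.07, adjusted p = 6.2e-04) and Zfp143 (-0.45 ± 0.08, adjusted p = 0.0011), an activator of such promoters, stayed short of the fold threshold. By adjusted p alone 3 genes were lower and 4 higher, against 26.7% and 26.3% of all genes, with a list median of -0.09. The other 3 of the higher genes, named after their values were seen, were Snapc4 (0.31), Bdp1 (0.28) and Tbp (0.24), all short of the fold threshold.

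The genes whose log2 CPM was most like that of Rpph1 over the 8 libraries, by Pearson's r among the 11830 genes averaging 1 CPM or more, were Ccnb1ip1 (0.999), Mrpl41 (0.999), Cyp51 (0.996), Cyria (0.996) and Vcp-rs (0.995). The controls and 4A1 KO libraries formed separate clusters of 4, so these values largely restate the genotype difference and are descriptive. The mean CPM of Mrpl41, a gene of the mitochondrial ribosome, was 26.5 in controls and 14.8 in 4A1 KO cells. That of Cyp51, an enzyme of cholesterol synthesis, was 277 and 98.5. For Rmrp the same ranking gave P2ry10b (0.907), Adal (0.883), Erbb3 (0.881), Ankrd13d (0.873) and Trim45 (0.871), and it rests on at most 7 reads a library.

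Promoters were read from RefSeq (GRCm38.p6), from 250 bases before to 50 bases after each start, and 6 of the 10 members were matched (Pop4, Pop5, Pop7, Rpp30, Rpp38 and Rpp40). The E-box CACGTG, searched on both strands, was found in 1 of the 6, Rpp38, and in 7.15% of 32851 promoters. TATAAA was found in none of the 6 and in 13.6% of all promoters, the octamer ATTTGCAT in none and in 1.74%, and TTTGGCGC or TTTCCCGC in none and in 1.56%. The promoter of Rpp38 (GRCm38.p6 chr2:3332579-3332878, minus strand) is shown because it held the only match, with the E-box in capitals.
Rpp38 promoter: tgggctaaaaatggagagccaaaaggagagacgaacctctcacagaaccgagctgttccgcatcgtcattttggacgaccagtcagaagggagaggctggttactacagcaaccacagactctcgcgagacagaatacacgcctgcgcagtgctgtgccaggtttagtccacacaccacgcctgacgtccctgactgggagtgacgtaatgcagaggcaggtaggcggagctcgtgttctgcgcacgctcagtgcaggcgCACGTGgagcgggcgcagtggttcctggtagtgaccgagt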

How the data were processed

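RNA of activated splenic B cells was sequenced as stranded, paired 50-base reads. The authors trimmed the reads (Trim Galore 0.6.6), mapped them to GRCm39 (HISAT2 2.1.0) and deposited raw counts per gene, made with Seqmonk over merged isoforms with the strand setting. The TPM were calculated by the authors with StringTie 2.1.1. How reads on overlapping genes were shared, and any rRNA depletion or poly(A) selection, are not given in the sources used here. Every sample column of both tables was used. The labels do not say what a batch is.

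The members and the gene lists were chosen with earlier results of these data known. The fits used edgeR 4.0.16 in R 4.3.3 (filterByExpr, TMM, quasi-likelihood test, batch, sex and genotype as terms, Benjamini-Hochberg adjustment over all genes, two-sided). Genotype was fitted on 6 libraries (replicates 2 to 4), the other terms on 8. CPM are normalised over 8 libraries. Calls needed an adjusted p below 0.05 and, for genotype, a log2 fold change beyond 0.5 either way. The p-values measure the spread between these libraries.

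Same-numbered libraries of both genotypes share the labelled sex and batch, which pairs them. After subtracting each genotype's mean, same-numbered libraries correlated at 0.677, 0.665 and 0.527 and others at -0.486 to -0.107. In 6 libraries batch and sex equal the replicate number as a block.

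Named were all members, other subunits, small RNAs and genes that overlap a member or start within 1000 bases of its start and are in the count table, the 4 smallest adjusted p of each pathway list, and the 5 genes most alike (log2 of CPM plus 0.5). Positions and neighbours came from GENCODE M39 on GRCm39, in which 52647 of 53242 identifiers matched. Alternatives used DESeq2 1.42.0, other factors and filters, no replicate block, all 8 libraries, each replicate left out, and limma 3.58.1 on log2(TPM + 1) or log2(TPM + 0.1) with a mean of at least 1 TPM or no filter. The code was tested on simulated data.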

Additional observations from a re-analysis of the deposited data

Results flagged for a closer look

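Of 24 groups of 4 libraries examined (12 subunits in each genotype), 3 had a library far from the other libraries, where about 1 group in 20 is expected by chance, or 1.2 of 24. The Pop5 level in 4A1 KO cells was 29.5 CPM in replicate 3 and 31.2 to 31.5 CPM in the others, a gap of 0.866 of the range. Rpp21 in controls was 15.7 CPM in replicate 1 and 12.3 to 12.9 CPM in the others (0.84 of the range). Rpp25 in controls was 2.02 CPM in replicate 4 and 1.42 to 1.43 CPM in the others (0.975 of the range).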

How the results depend on the processing

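Each genotype result was recomputed under 10 alternatives, and the 9 fitted members also on the TPM, which gave 117 fold changes. None changed sign for a called member, and 116 moved by less than the SD between pairs. The exception was Rpph1 under DESeq2 with normal shrinkage, at -2.76, where the difference between Rpph1 and the median protein subunit was -2.52. Over the fits without a replicate that difference ran from -3.65 to -3.00.

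The number of members past the thresholds was 2, and 1 under DESeq2, under DESeq2 with normal shrinkage, with no replicate block and over all 8 libraries, where Rpph1 stayed and Rpp38 was lost. It ran from 1 to 3 without single replicates (Pop5 joined without replicate 2, and Pop1 and Pop5 without replicate 4). The other subunits called were 2, Rpp25 and Rpp25l, with DESeq2 size factors and with no filter on low counts, and 0 to 1 without single replicates. Over all 8 libraries Rpp25 was called in place of Rpp25l. The 3 pathway lists held 3 called genes, and 2 to 5 without single replicates (Elac1 and Snapc2 joined without replicate 4). Members that differed by sex numbered 0 to 1 without single replicates, and those that differed by batch 1 in each such fit, while Rpp40 joined them with DESeq2 size factors. The number of genes called was 3596, and 2587 to 3821 over all alternatives (3000 genes with no replicate block, a block that changed no other call reported for members, lists or other subunits). The interaction terms gave 0 members in each of their fits.

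Rmrp and the other short RNAs apart from Rnu7 had too few reads to pass the filter over 6 or over 8 libraries. The cause of these changes was not tested.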
